A study of Mus musculus with 18 samples.

Results

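Open chromatin at 8 genes that encode transcription factors of the B lineage was compared between B cells and T cells of the mouse spleen: Pax5, Ebf1, Spi1, Spib, Pou2af1, Pou2f2, Bcl11a and Irf8. A region of the deposited count table was counted to one of these genes when the nearest end of any protein-coding gene, within 50 kb, belonged to it. This gave 42 of 27396 regions: Pou2f2 and Bcl11a had 9 each, Pax5 had 8, Irf8 had 6, Spi1 had 5, Ebf1 had 4, Pou2af1 had 1 and Spib had 0. Of these, 27 lay inside the gene or over its end and 15 outside it. A region within 1 kb of a gene end is called a gene-end region below and any other a distal region.

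The factors form a network that sets and keeps B cell identity. Ebf1 and Pax5 commit progenitors to the B lineage, Pax5 by switching on B cell genes and shutting off those of other lineages. Spi1 encodes PU.1 and Spib encodes Spi-B, related ETS factors, and PU.1 also acts in myeloid cells. Pou2f2 encodes Oct2, an octamer-binding factor, and Pou2af1 encodes its B cell coactivator OBF-1. Irf8 acts in B cells, dendritic cells and monocytes, often together with PU.1, and Bcl11a encodes a zinc finger repressor needed early in B cell development. ATAC-seq counts transposase insertions, and such insertions are frequent at active promoters and enhancers.

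Fresh frozen spleen sections of wild-type C57BL/6J mice were transposed on the slide and immunostained, and nuclei of B or T cells were then cut out with a laser (laser capture microdissection). All 4 groups shared this genotype and tissue: B patches and T patches (n = 5 libraries each, about 1000 nuclei from 10 captured areas per library) and B and T cells captured nucleus by nucleus (n = 4 libraries each, 100 nuclei per library). The sources used here do not give the age and number of the mice or the stained antigens, and a patch can hold nuclei of neighbouring cells. Libraries within a group were technical replicates with no label that tied one to an animal, so that p-values measure only the spread between these libraries.

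Patches held 2193837 to 7343204 counts per library and libraries of 100 nuclei 319481 to 1076765. Among markers of the stained cells, with counts summed over the regions of a gene, 6 of 7 B cell genes were higher in B patches and 7 of 8 T cell genes in T patches (edgeR's quasi-likelihood test, adjusted p under 0.05). B cell marker regions took 0.0896% to 0.133% of nuclear counts in B patches and 0.0179% to 0.0255% in T patches. In such captures, signal from T nuclei and from B nuclei within a T patch cannot be told apart. At 100 nuclei, T libraries 3 and 4 had counts in only 3941 and 3300 regions, against 7614 to 10954 in the 4 B libraries.

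Annotated promoters were covered by counted regions at several of these genes, and their sequences are shown since the comparisons below turn on whether the promoter or a distal region carried the difference. The 250 bases before an annotated start site are given 5′ to 3′ on the gene's strand, from RefSeq (GRCm38.p6, the assembly of mm10), with the bases inside a counted region in capitals. At Pax5 (minus strand, chr4:44710695-44710944) 138 bases lay inside, at Irf8 (plus strand, chr8:120736108-120736357) 179, and at Pou2af1 (plus strand, chr9:51213440-51213689) all 250.
Pax5: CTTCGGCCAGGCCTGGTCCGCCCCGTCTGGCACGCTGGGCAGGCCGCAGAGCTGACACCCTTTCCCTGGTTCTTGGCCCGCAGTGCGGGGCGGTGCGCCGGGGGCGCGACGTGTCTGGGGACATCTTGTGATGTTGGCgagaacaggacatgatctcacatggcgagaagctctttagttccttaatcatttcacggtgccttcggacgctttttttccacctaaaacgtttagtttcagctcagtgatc
Irf8: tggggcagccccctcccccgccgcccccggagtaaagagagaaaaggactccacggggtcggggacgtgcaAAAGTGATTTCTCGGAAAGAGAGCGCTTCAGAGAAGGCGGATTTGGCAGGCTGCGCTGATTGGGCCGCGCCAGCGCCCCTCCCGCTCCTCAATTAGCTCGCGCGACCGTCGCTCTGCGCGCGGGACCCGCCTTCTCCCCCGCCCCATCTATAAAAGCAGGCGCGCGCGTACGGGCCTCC
Pou2af1: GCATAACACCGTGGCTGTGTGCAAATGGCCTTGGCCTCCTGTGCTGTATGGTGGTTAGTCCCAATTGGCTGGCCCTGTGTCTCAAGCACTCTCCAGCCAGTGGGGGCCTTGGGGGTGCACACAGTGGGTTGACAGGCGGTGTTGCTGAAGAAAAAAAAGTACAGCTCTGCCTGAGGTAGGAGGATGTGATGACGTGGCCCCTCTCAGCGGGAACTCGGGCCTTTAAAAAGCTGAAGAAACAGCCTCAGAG

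The Pou2f2 promoter (minus strand, chr7:25132461-25132710) lay wholly inside a counted region, and it is shown with capitals for its match to an ETS-IRF composite motif, the kind of element on which PU.1 or Spi-B binds with Irf4 or Irf8.
Pou2f2: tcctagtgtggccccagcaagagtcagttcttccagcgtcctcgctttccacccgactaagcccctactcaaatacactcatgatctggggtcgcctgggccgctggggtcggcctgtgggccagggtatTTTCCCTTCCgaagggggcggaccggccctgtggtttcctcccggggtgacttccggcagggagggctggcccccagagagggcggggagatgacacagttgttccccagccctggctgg

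Both strands of these windows were searched for the octamer ATGCAAAT, the ETS forms GAGGAAGT and AGGAAGT, of which the second lies within the first, the EBF form CCCNNGGG, an IRF form (GAAA, 2 bases of any kind, GAAA) and the composite (GGAA, 2 bases of any kind, GAAA). Among 32851 promoter windows of the same length, 1.6% held the octamer, 2.44% and 7.69% the ETS forms, 11.8% the EBF form, 2.98% the IRF form and 2.30% the composite. The composite at Pou2f2 began 120 bases before the start, on the other strand. Of the other windows, one at Ebf1 held the IRF form and that of Spib held overlapping EBF forms, while those of Pax5, Pou2af1, Bcl11a and Irf8 held none of these letters. Such matches describe the sequence and were not tested for binding.

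In patches, chromatin at 5 of the 7 factor genes with regions was more open in B cells. With counts summed over all regions of a gene, Ebf1, Bcl11a, Pax5, Pou2af1 and Irf8 were higher in B patches, by 1.37 to 2.78 on the log2 scale, and Pou2f2 and Spi1 did not pass the test. The test was edgeR's quasi-likelihood test with Benjamini-Hochberg adjustment over 11094 genes, of which 2.38% were higher in B and 1.87% higher in T. The median log2 fold change was 1.52 over the 7 factor genes and -0.02 over all genes. In the same 5 genes every B library lay above every T library, as it did in 3.88% of all genes. Factor regions together took 0.164% to 0.202% of nuclear counts in the B patch libraries and 0.0672% to 0.101% in the T patch libraries, so that the groups were apart.

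**Figure D1:**
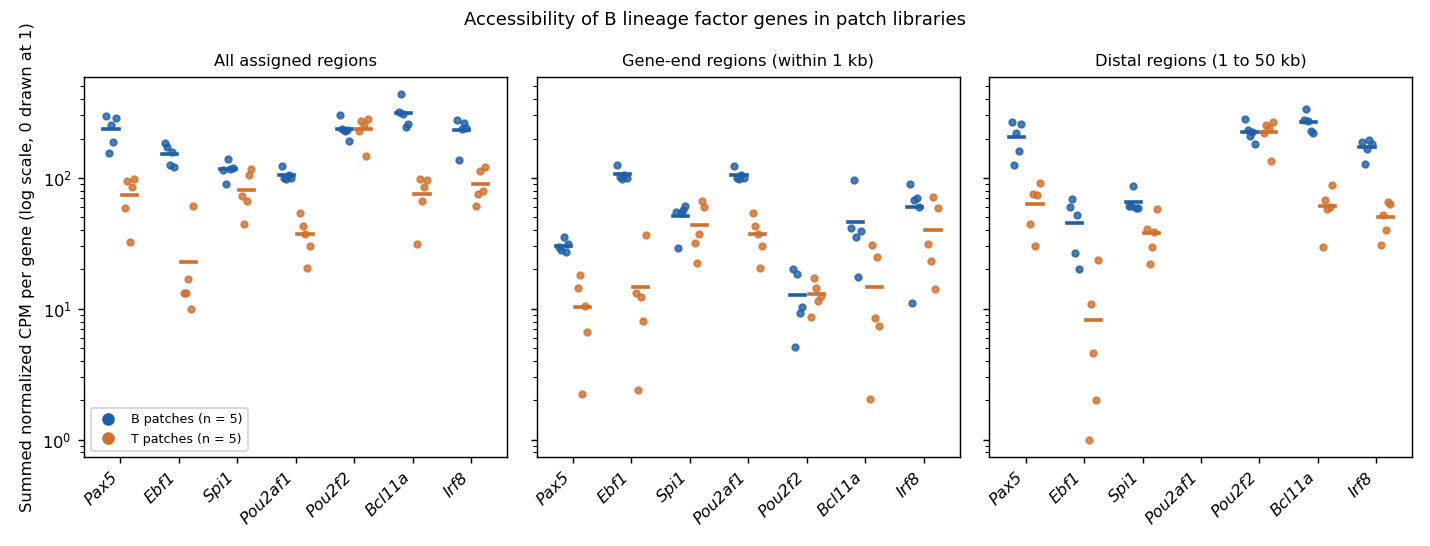
Normalized CPM summed over the regions of each gene (log scale; a 0 is drawn at 1), for all regions, gene-end regions and distal regions; points are the 5 B and 5 T patch libraries and bars their means. Over all regions the B and T libraries of Pax5, Ebf1, Pou2af1, Bcl11a and Irf8 did not overlap, while those of Spi1 and Pou2f2 did.

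Region by region, 7 of 41 tested factor regions passed, 6 higher in B and 1 higher in T; over all 25712 regions tested, 2.27% passed, 1.22% higher in B and 1.05% higher in T. Log2 differences were above 0 in 34 factor regions and below 0 in 7, against 48.7% above 0 over all regions. The median was 1.54 over the factor regions and -0.03 over all regions. Without adjustment 18 of 41 were under a p of 0.05, against 12.7% of all regions. In 14 factor regions all B libraries lay above all T libraries, and in 1 the reverse, where 4.33% and 3.69% of all regions were apart in these directions. A joint fit of all 18 libraries, which shares one spread between patches and single nuclei, passed 0 of the factor regions and 0 of all regions in patches. By DESeq2, 11 factor regions passed, as did 8.2% of all regions.

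**Figure D2:**
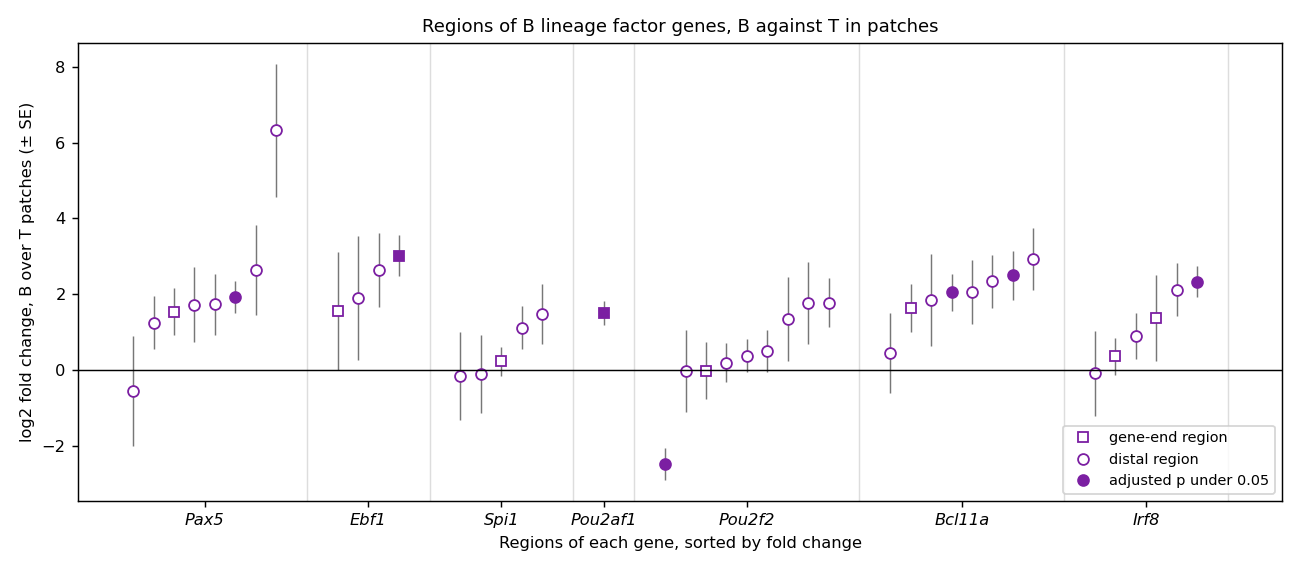
Log2 fold change of B over T patches (± SE) for each of the 41 tested regions, grouped by gene and sorted within it; squares are gene-end regions, circles distal regions, and filled symbols passed an adjusted p of 0.05. Filled symbols lie above 0 at 6 regions and below 0 at 1 region of Pou2f2; the highest Pax5 point has T libraries almost all at 0 and its size is uncertain.

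Ebf1, which opens chromatin for the B lineage program, showed the largest fold among the factor genes. Its summed level was 186, 171, 125, 158 and 120 normalized CPM (CPM, counts scaled to a common library size) in B patch libraries 1 to 5, and 13.2, 13.3, 17.0, 10.0 and 60.7 in T patch libraries 1 to 5. Every B library lay above every T library, and T library 5 stood above the other T libraries. The difference was 2.78 ± 0.42 (SE) on the log2 scale (adjusted p = 0.000474), and 3.52 without T library 5 (adjusted p = 2.12e-05). A single region before the gene's start held most of its B counts (chr11:44617105-44617422, 0.678 kb outside the gene on its start side). There B patches had 98.9 ± 9.47 and T patches 12.1 ± 14.3 normalized CPM (SD, n = 5 each), a log2 difference of 3.02 ± 0.55 (adjusted p = 0.00674), or 4.04 without T library 5. At the other end of the gene levels were low, at 7.47 ± 7.43 and 2.48 ± 3.69 normalized CPM (1.56 ± 1.56, adjusted p = 0.827). Its 2 distal regions, 6.61 and 15.0 kb inside the gene, had log2 differences of 2.64 ± 0.98 and 1.90 ± 1.63 and did not pass.

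At Pax5, the keeper of B cell identity, the summed level was 298, 154, 254, 188 and 287 normalized CPM in B patch libraries 1 to 5 and 58.7, 94.0, 32.3, 84.7 and 97.4 in T patch libraries 1 to 5. All B libraries lay above all T libraries (1.68 ± 0.28 on the log2 scale, adjusted p = 0.00127). The region that passed on its own lay inside the gene, 5.97 kb from its start (chr4:44704409-44704724). It had 107, 74.1, 65.2, 43.3 and 99.5 normalized CPM in B libraries and 13.5, 26.1, 9.14, 39.1 and 14.2 in T libraries, again with no overlap (1.94 ± 0.43, adjusted p = 0.0194). The call at this region was lost without B patch library 1 or 5 or T patch library 1, 3 or 5 (adjusted p = 0.054 to 0.0729). At the promoter shown above, the B libraries of the region starting at 44710807 ranged from 27.1 to 35.1 and the T libraries from 2.25 to 18.1 normalized CPM (1.54 ± 0.62, adjusted p = 0.249). Its groups were thus apart, but the difference did not pass the test. A group of 4 regions 37.5 to 43.1 kb inside the gene had log2 differences between 1.25 and 2.63, none of which passed. A region 30.2 kb inside had 13.1 ± 13.6 normalized CPM in B and counts in T patch library 5 alone among T libraries (adjusted p = 0.0623). The region 33.4 kb from the 3′ end had 4.54 ± 5.56 and 6.68 ± 6.38 normalized CPM and did not pass (-0.55 ± 1.46, adjusted p = 0.963).

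The ETS factor genes differed less clearly or could not be followed. Spi1 had 90.3 to 139.9 normalized CPM in B patch libraries and 44.6 to 117.4 in T patch libraries, with overlap (0.54 ± 0.26, adjusted p = 0.354). The region at its end (chr2:91082911-91083181, 0.537 kb inside the gene) was open in both, at 51.1 ± 12.5 in B and 43.5 ± 18.7 normalized CPM in T (0.23 ± 0.38, adjusted p = 0.928). The 4 distal regions of Spi1 summed to 65.1 ± 11.9 in B and 37.7 ± 13.4 in T. Those libraries did not overlap, yet the log2 difference of 0.77 ± 0.34 missed the threshold (adjusted p = 0.166). Among them was a region 14.2 kb inside the gene (chr2:91096593-91096814), with 22.8 to 31.8 normalized CPM in B and 9.27 to 21.9 in T (1.12 ± 0.56, adjusted p = 0.420).

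Spib received no region, since another gene always had the nearer end. The nearest region to Spib (chr7:44533037-44533170) lay 0.95 kb outside its 5′ end and 0.293 kb from Pold1, a DNA polymerase subunit gene. It had 40.4 ± 8.94 normalized CPM in B patches and 6.14 ± 6.50 in T patches (2.69 ± 0.76, adjusted p = 0.0687), with every B library above every T library. A second region on the same side, 2.21 kb from Spib, had 68.0 ± 23.1 and 22.2 ± 19.1 normalized CPM (1.61 ± 0.65, adjusted p = 0.253). These counts cannot be given to one of the 2 genes.

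Because PU.1 and Irf8 also act in myeloid and dendritic cells, markers of those cells are given beside them. Of 8 macrophage markers 3 had tested regions, with a median log2 difference of -0.08. Adgre1, which encodes the F4/80 antigen, was higher in B patches (1.98 ± 0.34, adjusted p = 0.00151). Csf1r, the receptor for macrophage growth factor, was at -0.08 ± 1.27, and Itgam was at -0.78 ± 0.80 (adjusted p = 0.776). Of the 3, only Adgre1 had a higher mean level in B patches, at 140.6 normalized CPM against 36.3 in T patches. Macrophage marker regions took 0.0172% to 0.0294% of nuclear counts in B patches and 0.00308% to 0.0168% in T patches. Of 7 dendritic cell markers 4 had tested regions, with a median log2 difference of 1.58, and Flt3 came nearest to passing (1.15 ± 0.33, adjusted p = 0.0585). Their share was 0.0200% to 0.0321% in B patches and 0.00683% to 0.0128% in T patches, so both shares were higher in every B patch library. Their part in the Spi1 and Irf8 values was not tested.

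Irf8 was more open in B patches at a distal region and not detectably so at its promoter. Its summed level was 277, 138, 236, 263 and 241 normalized CPM in B patch libraries 1 to 5 and 61.5, 75.2, 112.3, 79.7 and 121.4 in T patch libraries 1 to 5. The groups did not overlap (1.37 ± 0.22, adjusted p = 0.000897). A region 10.8 kb before the start (chr8:120725083-120725606) had 130, 73.4, 117, 133 and 106 normalized CPM in B and 8.14, 14.9, 13.6, 35.6 and 38.7 in T. All B libraries there lay above all T libraries (2.33 ± 0.40, adjusted p = 0.00478). The region over the annotated start (chr8:120736179-120736452), whose sequence is shown above, had 43.2 ± 20.8 in B and 33.5 ± 17.4 normalized CPM in T, with overlapping libraries (0.37 ± 0.49, adjusted p = 0.901). A small region 9.11 kb inside the gene was apart between the groups (26.1 ± 7.07 against 5.99 ± 2.71) without passing the test (2.12 ± 0.69, adjusted p = 0.124).

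The octamer pair differed from each other in pattern. Pou2af1 had only the region that covers its start and whole promoter window (chr9:51213109-51213792). It had 123, 99.1, 98.5, 105 and 100.1 normalized CPM in B patch libraries and 54.2, 43.0, 37.3, 20.5 and 30.5 in T patch libraries. No T library reached the lowest B library (1.50 ± 0.31, adjusted p = 0.0117). B library 1 stood above the other B libraries, and the adjusted p stayed between 0.00921 and 0.0434 when each library in turn was left out.

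At Pou2f2 the summed level did not pass the test, at 238 ± 38.8 normalized CPM in B patches and 237 ± 53.6 in T patches (0.03 ± 0.20, adjusted p = 0.973). One region inside the gene was the only factor region that passed as higher in T (chr7:25155787-25156335, 23.3 kb before the annotated start and 24.5 kb from the gene's outermost 5′ end). The other 6 factor regions with log2 differences below 0 did not pass. It had 29.0, 32.3, 12.5, 10.1 and 13.9 normalized CPM in B patch libraries 1 to 5 and 72.0, 186, 121, 47.6 and 119 in T patch libraries 1 to 5. Every T library lay above every B library, and the level was lower in B by a log2 difference of -2.48 ± 0.42 (adjusted p = 0.00466).

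At the gene's outermost 5′ end (chr7:25181485-25181691) levels were 12.7 ± 6.46 and 12.9 ± 3.23 normalized CPM (-0.01 ± 0.75, adjusted p = 0.998). The other 8 regions of Pou2f2, this one among them, summed to 219 ± 33.9 normalized CPM in B and 128 ± 33.6 in T. Of these, a region 2.52 kb inside the transcribed part (chr7:25129639-25129944) had 46.6 to 113 normalized CPM in B and 0 to 32.2 in T, with no overlap and no pass (1.78 ± 0.64, adjusted p = 0.176). The promoter shown above, in chr7:25132442-25132730, was open in both cell types, at 35.8 ± 7.10 in B and 27.4 ± 8.34 normalized CPM in T (0.38 ± 0.43, adjusted p = 0.858). Whether the region higher in T differs from the rest of the gene in its B against T difference was not tested.

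Bcl11a was more open in B patches as a whole gene, and 2 of its 8 tested regions passed on their own. Its summed level was 317, 435, 309, 244 and 258 normalized CPM in B patch libraries 1 to 5 and 31.5, 98.9, 66.2, 84.9 and 95.8 in T patch libraries 1 to 5. The lowest B library lay above the highest T library (2.08 ± 0.29, adjusted p = 0.000222). All 8 tested regions had log2 differences above 0, from 0.45 to 2.93, and in 5 of them the groups did not overlap. Those that passed lay beyond the gene's 3′ end. The region at chr11:24200288-24200724, 26.7 kb outside, had 70.7 ± 25.1 in B and 17.1 ± 12.2 normalized CPM in T (2.05 ± 0.49, adjusted p = 0.0310). That at chr11:24184922-24185373, 11.4 kb outside, had 61.0 ± 14.1 and 10.8 ± 6.57 (2.50 ± 0.65, adjusted p = 0.0436).

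Both calls are close to the threshold: the nearer region lost its call without any one library other than B patch library 2 or T patch library 1, and the farther region without B patch library 1, 2, 3 or 4 or T patch library 1, 3 or 4 (adjusted p up to 0.117 and 0.0878). The call for the sum over the gene held each time a library was left out (adjusted p at most 0.00149). The gene-end region, 0.898 kb inside the 5′ end (chr11:24077462-24077722), ranged from 17.6 to 95.8 normalized CPM in B and from 2.03 to 30.9 in T, with overlap (1.64 ± 0.63, adjusted p = 0.221). The small region over the annotated start (chr11:24080646-24080760) had 19.0 to 30.8 normalized CPM in B and 0.397 to 12.0 in T (2.06 ± 0.85, adjusted p = 0.270). One region, with 2.69 ± 2.92 normalized CPM in B and 0 counts in all T patch libraries, was too low to be tested.

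Gene-end and distal regions were then set apart. Among gene-end regions 2 of 9 were higher in B, at Ebf1 and Pou2af1, and 8 of 9 had log2 differences above 0. The median was 1.50, against -0.05 for gene-end regions of all genes, of which 0.374% were higher in B. Among distal regions 4 of 32 were higher in B and 1 lower, 26 of 32 were above 0, and the median was 1.73 against 0.02 for all distal regions, of which 1.9% were higher in B and 3.56% passed in either direction.

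Summed per gene, gene-end regions passed at 2 genes and distal regions at 3. Over gene-end regions (8720 genes, 0.321% higher in B), Ebf1 at 2.93 ± 0.47 (adjusted p = 0.00821) and Pou2af1 at 1.53 ± 0.30 (adjusted p = 0.0308) were higher in B, with Ebf1 at 3.59 without T library 5 (adjusted p = 0.00175). For Pax5 (1.52 ± 0.61), Bcl11a (1.66 ± 0.67) and Irf8 (0.62 ± 0.47) the gene-end sum did not pass (adjusted p = 0.467, 0.481 and 0.844). Over distal regions (5413 genes, 6.11% higher in B), Bcl11a at 2.10 ± 0.26 (adjusted p = 2.07e-05), Irf8 at 1.75 ± 0.26 (8.28e-05) and Pax5 at 1.71 ± 0.29 (0.000537) were higher in B, and Ebf1 at 2.40 ± 0.79 narrowly missed the threshold (adjusted p = 0.0510). In T patch library 5 the distal Ebf1 level was again the highest of the T libraries, and without it the distal sum of Ebf1 passed (3.36, adjusted p = 0.0137).

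The Pou2af1 gene-end sum lost its call without B patch library 1, 3, 4 or 5 or T patch library 3, 4 or 5 (adjusted p = 0.0612 to 0.1083). With gene ends narrowed to 0.5 kb, the main Ebf1 region became distal and the gene-end call of Ebf1 was lost (adjusted p = 0.894). The gene-end class follows the outermost annotated ends, so that the start-site regions of Pou2f2 and Bcl11a count as distal. With distance to an annotated start site used instead, 2 factor genes were higher in B for start-site regions (0.243% of all 7403 genes tested) and 4 for distal regions (5.85% of 4119).

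Whether B and T differed more at distal than at gene-end regions of the same gene was tested directly on the log2 ratio of distal to gene-end counts in each patch library. Over 3001 genes with both classes 0.566% passed (limma, Benjamini-Hochberg), and 0 of 6 factor genes did. Irf8 had the largest difference among them, with a mean log2 ratio of 1.78 ± 0.98 (SD, n = 5) in B patches and 0.51 ± 1.17 (SD, n = 5) in T patches, or 1.27 ± 0.70 higher in B (adjusted p = 0.413). The remaining differences were 0.54 ± 0.44 at Spi1, 0.35 ± 1.33 at Ebf1, 0.24 ± 0.67 at Bcl11a, 0.18 ± 0.50 at Pou2f2 and -0.06 ± 0.55 at Pax5. Without adjustment 15.5% of all genes were under a p of 0.05 and 0 of the 6 factor genes. With errors this wide, the missed threshold does not show that both classes differed alike.

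**Figure D3:**
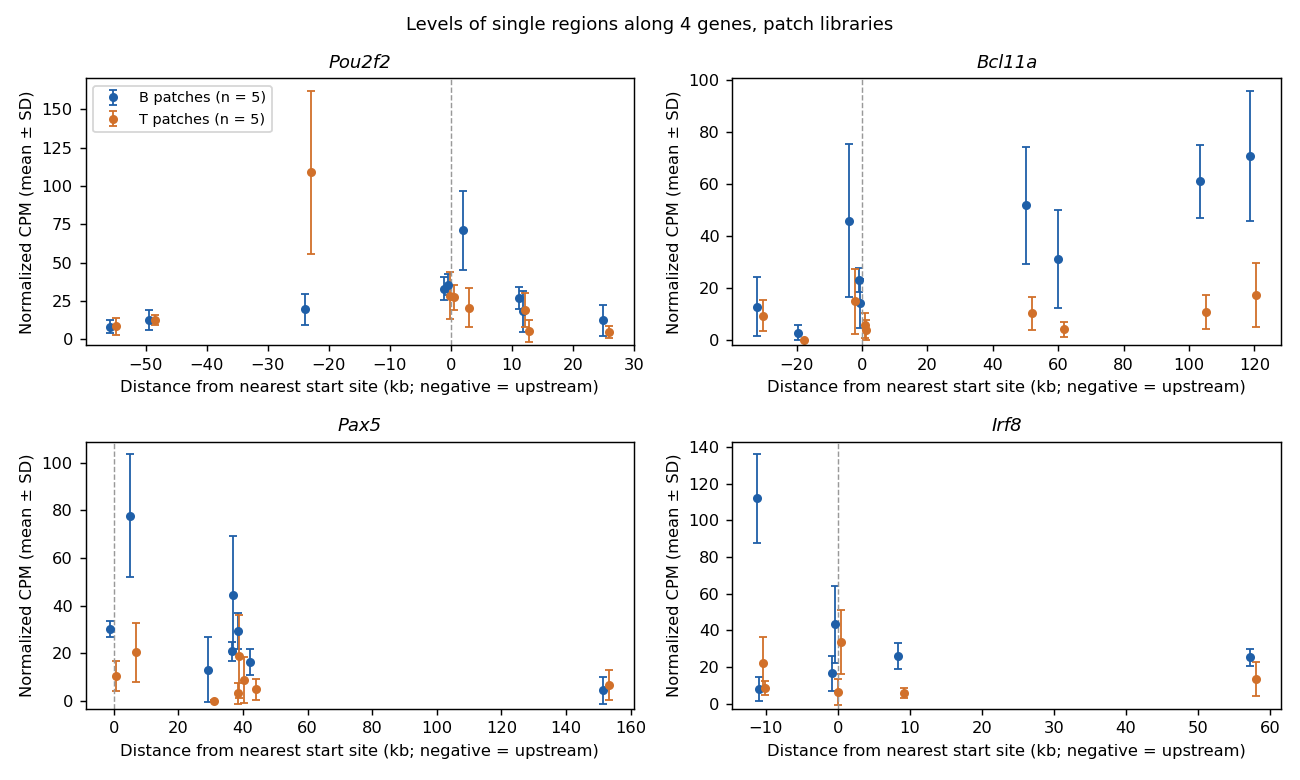
Mean normalized CPM ± SD in B and T patches (n = 5 each) of each region of Pou2f2, Bcl11a, Pax5 and Irf8, by distance from the nearest annotated start site in kb (negative is upstream; B and T points are set side by side). The region of Pou2f2 upstream of its start is high in T patches, and the highest B level of Irf8 is upstream of its start while the levels at the start itself overlap.

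At 100 nuclei the same factor regions were read more often in B libraries. Of the 42 regions, 36 had a count in at least 1 of 4 B libraries and 18 in at least 1 of 4 T libraries, where all regions gave 67.0% and 60.2%. Counts were found in more B than T libraries at 27 regions and in fewer at 3, against 41.2% and 22.4% of all regions. Factor regions took 0.149% to 0.338% of nuclear counts in B libraries and 0.0132% to 0.137% in T libraries. The lowest B library thus lay above the highest T library, as in patches. A B library had counts in 17 to 25 of the 42 regions and a T library in 2 to 14.

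**Figure D4:**
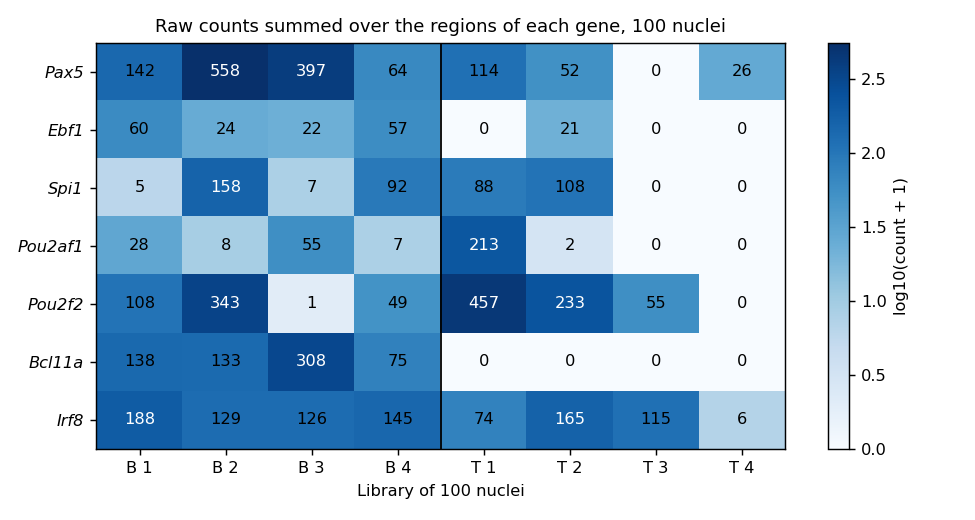
Raw counts summed over the regions of each gene in the 4 B and 4 T libraries of 100 nuclei; colour is log10(count + 1). Bcl11a has 75 to 308 counts in the B libraries and 0 in every T library, while Pou2f2 and Pou2af1 reach their highest counts in T library 1.

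Bcl11a was the factor gene that passed at this size. It had 138, 133, 308 and 75 counts in B libraries 1 to 4 and 0 counts in each of the 4 T libraries. It was also the only one of 11094 genes to pass (0.00901%; edgeR's quasi-likelihood test, adjusted p = 0.00758; 5.9% of all genes were under an unadjusted p of 0.05). By DESeq2 it was again the one factor gene that passed, then among 75 genes. Pooled over libraries, B cells had 259 CPM at Bcl11a (of all counts, not rescaled), and 0 counts in T cells allow up to 0.995 CPM, taking 3 counts over the 4 libraries as the floor. That is at least 261-fold higher in B in these counts, with counting error alone considered. The bound does not cover the spread between libraries. In the deeper patch libraries B was 4.22-fold higher, with 313 ± 75.1 normalized CPM in B and 75.5 ± 27.7 in T, so 261-fold is no minimum for the cell types. Leaving out B library 1, 2 or 3, or T library 1 or 2, ended the call (adjusted p = 0.0583 to 0.844), while leaving out T libraries 3 and 4 together did not. Of all genes tested, 62 (0.559%) had counts in all 4 B libraries and none in T. Bcl11a had the most raw counts of these, summed over its 9 regions, and this rank is not scaled for the number of regions. The reverse, counts in all 4 T libraries and none in B, held for 8 genes (0.0721%).

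For the distal regions alone Bcl11a had 119, 97, 278 and 57 counts in B libraries and was again the only gene past the threshold (0.0185% of genes; adjusted p = 0.0350; 6.45% were under an unadjusted p of 0.05). That call was lost with library size alone as scaling (adjusted p = 0.0801) and without any one library other than T library 3 or 4. At its gene-end region it had 19, 36, 30 and 18 counts in B libraries and 0 in T libraries. Over gene-end regions, 0 genes passed by edgeR (0.0%; 5.94% were under an unadjusted p of 0.05), and by DESeq2 33 did, with Ebf1 the one factor gene among them (adjusted p = 0.0307).

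Single regions gave few counts. The region test at 100 nuclei passed 0 factor regions (edgeR, smallest adjusted p = 0.356; 12 of 41 were under an unadjusted p of 0.05, against 5.5% of all regions; DESeq2 also passed 0), and 0.0156% of all regions, each of them mitochondrial. The factor regions with counts in all 4 B libraries and no T library were 3, where 0.456% of all regions had this pattern. They were the gene-end region of Bcl11a, the Bcl11a region 26.7 kb outside the gene and the Pax5 promoter, which had 24, 33, 18 and 16 counts. The main Ebf1 region had 60, 0, 22 and 47 counts in B libraries and 0 in every T library.

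Ebf1 summed to 60, 24, 22 and 57 counts in B libraries and 0, 21, 0 and 0 in T libraries, so that the raw counts were barely apart, and it did not pass (adjusted p = 0.956). All B counts of Ebf1 came from its gene-end regions and all T counts from its distal regions, in T library 2, where the B libraries had 0 counts (adjusted p = 0.380 for the distal sum). In raw counts, which are not scaled for depth, Pax5, Irf8, Pou2af1 and Spi1 overlapped between B and T at 100 nuclei. At Pax5 the overlap was between B library 4 and T library 1, of 603010 and 1015091 total counts. At Irf8 only T library 2, of 1076765 total counts, reached the B libraries. Overlap at Pax5 and Irf8 after scaling for depth was not assessed. Pax5 summed to 142, 558, 397 and 64 counts in B and 114, 52, 0 and 26 in T (adjusted p = 0.602), and its T counts came mainly from the region 5.97 kb inside the gene. Irf8 had 188, 129, 126 and 145 counts in B and 74, 165, 115 and 6 in T. At its upstream region, 143, 106, 22 and 98 counts in B stood against 67, 72, 100 and 6 in T, an overlap that patches did not have. The Irf8 region over the annotated start had 45, 0, 0 and 38 counts in B and 0 in every T library, and it did not pass. Its other gene-end region had 27 counts in B library 3 and 46 in T library 2 alone. Pou2af1 had 28, 8, 55 and 7 counts in B and 213, 2, 0 and 0 in T. Here T library 1 alone held more counts than the 4 B libraries together. Spi1 ranged from 5 to 158 counts in B and from 0 to 108 in T.

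The Pou2f2 region higher in T patches had 141, 64, 0 and 0 counts in T libraries of 100 nuclei and 0 in each of the 4 B libraries. Its direction was thus the same as in patches, with counts in only T libraries 1 and 2, which were the deeper pair. Over the whole gene Pou2f2 had 108, 343, 1 and 49 counts in B and 457, 233, 55 and 0 in T, with overlap.

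The B against T difference itself was compared between patches and 100 nuclei in one fit of all 18 libraries. For this interaction 0 of 41 factor regions passed (smallest adjusted p = 0.0725), as did 0.0% of all 25712 regions, although 18 of 41 factor regions and 27.1% of all regions were under an unadjusted p of 0.05 by edgeR. This fit thus detected no difference between the capture sizes for single factor regions. It shares one spread between patches and 100 nuclei, as did the joint fit that passed 0 of all regions in patches. The missed threshold therefore does not show that the differences were alike at both sizes. Without T library 1 of 100 nuclei the interaction passed at 419 of all regions, and still at 0 factor regions.

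Genes connected to these factors were followed in patches in lists that were chosen with earlier results of these data known. Of 15 tested genes known as targets of the factors in B cells, 7 were higher in B and 0 in T, with a median log2 difference of 2.26 against -0.02 over all genes. Ms4a1, which encodes CD20, had 3.68 ± 0.43 (adjusted p = 5.03e-05), and Blnk, the B cell receptor linker, had 2.43 ± 0.32 (adjusted p = 0.000157). Cd79b, a B cell receptor subunit, had 1.96 ± 0.31 (adjusted p = 0.000759). Cxcr5, a chemokine receptor of B cell follicles, was at -0.04 ± 0.22 and did not pass.

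Of 12 other B lineage regulators 3 were higher in B and 0 in T (median 0.57). They were Mef2c, a MADS box factor, at 2.25 ± 0.37, Cbfa2t3, a corepressor, at 1.72 ± 0.35 and Irf4, a relative of Irf8, at 1.51 ± 0.28 (adjusted p = 0.000957, 0.00631 and 0.00257). Tcf3, Ikzf1, Runx1, Bach2 and Foxo1 had log2 differences from -0.07 to -0.50 and did not pass. Among 8 tested genes known to be repressed by Pax5, 0 were higher in B and 1 was higher in T (median -0.75). It was Cd28, the T cell costimulatory receptor, at -2.31 ± 0.41 (adjusted p = 0.00186), which is also one of the T cell markers. Flt3, the dendritic cell marker above, and Sdc1 went the other way without passing. They had 1.15 ± 0.33 and 1.16 ± 0.78 (adjusted p = 0.0585 and 0.587), and the remaining genes were below 0.

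T lineage transcription factors gave the opposite picture to the B lineage factors. Of 8 genes 0 were higher in B and 6 were higher in T, with a median log2 difference of -1.86. Tcf7, which encodes TCF-1, was at -2.84 ± 0.30 with 48.1 ± 23.8 normalized CPM in B and 346 ± 54.3 in T (adjusted p = 1.65e-05). Lef1, Bcl11b and Gata3, further regulators of T cell development, had -2.05 ± 0.33, -1.97 ± 0.37 and -1.75 ± 0.32 (adjusted p = 0.000897, 0.00321 and 0.00215). Satb1 (-0.52 ± 0.23) and Zbtb7b (0.00 ± 0.28) did not pass. The paralogs Bcl11a and Bcl11b thus passed in opposite directions.

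Other genes with a pattern most like that of the factors were ranked over the 10 patch libraries. The likeness was Pearson's r between a gene's log2 level and the mean of the factors' standardized log2 levels, among 5540 genes at or above median abundance, all measured in the same libraries. The highest values were at Tmem163 (0.981), Ttpal (0.973), Scd1 (0.972), Rasgef1b (0.970) and Fcrl5 (0.969). These genes were chosen by that measure, so that their own differences between B and T, from 1.36 to 2.26 on the log2 scale, are a description.

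The 50 kb limit left some regions of the long genes out. The farthest regions inside it were at Pou2f2, 45.1 and 45.7 kb from an end, with log2 differences of 0.38 ± 0.43 and 0.20 ± 0.52. The closest outside it were 57.4 kb from Bcl11a (1.52 ± 1.30) and 57.5 kb from Ebf1 (3.84 ± 1.03).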

How the data were processed

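ATAC-seq was measured in 18 libraries of mouse spleen. The authors deposited raw whole-number counts for 27396 regions in 18 columns, each matched to its library by name; the totals show no normalization. Per the submitters' processing notes, the genome build was mm10, and the tools included MACS2 2.2.7.1, Bowtie2 2.4.5, Trimmomatic 0.36, SAMtools 1.14, bcl2fastq 2.20, deepTools 3.5.2, R 4.1.0 and Picard. The sources used here do not give their parameters, how regions were called, how duplicates were handled, whether insertion sites were shifted or whether region starts count from 0 or 1. Coordinates are printed as deposited. No molecular identifiers are stated, so floors cover counting error only.

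Each region was given the protein-coding gene with the nearest end within 50 kb in a GRCm38.p6 gene table, which assigned 86.7% of regions. Counts were tested with edgeR 4.0.16 in R 4.3.3 (TMM, quasi-likelihood F-test, Benjamini-Hochberg over all features tested, threshold 0.05). The same 25712 regions past filterByExpr (minimum count 10) entered each region test, and sums per gene entered separate tables for all, gene-end and distal regions. Each comparison used its own 2 groups, and the interaction used all 18 libraries. An SE is the absolute log2 fold change over the root of F. Normalized CPM use TMM-scaled library sizes, and summed CPM add those of single regions. The ratio of distal to gene-end counts (each + 0.5) was tested with limma 3.58.1. The tests were tried on simulated data whose levels and spreads came from these same counts. The outcome is not given here, and no result above rests on it. Alternatives were DESeq2 1.42.0, other scalings, filters, distance limits and fits, the replicate number as a block, and each library left out.

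The members, lists and tests were chosen with earlier results of these data known. Named regions were, for each gene, the one nearest an end, the one of highest mean level, the one of smallest p, and every region that passed; others were added after their values were seen. Promoters came from RefSeq for 7 of the 8 genes. No sequence is shown for Spi1.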

Additional observations from a re-analysis of the deposited data

Results flagged for a closer look

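Among 26 groups of 4 or 5 libraries checked for a library far from the rest, 2 had one, and chance gives about 1 in 20 such groups. In T patches, the summed level of Ebf1 was 60.7 normalized CPM in library 5, where the other 4 libraries had 10.0 to 17.0. In B patches, the level of Pou2af1 was 123 normalized CPM in library 1, where the other 4 libraries had 98.5 to 105.3.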

How the results depend on the processing

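Over all alternatives, 130 of 160 recomputed counts of factor regions or genes stayed within 1.5 times the reported count. The 5 factor genes higher in B patches numbered 5 under every alternative run on the summed counts, and the distal sums gave 3 or 4. The joint fit of all 18 libraries and the run without a filter on low counts were not made on the summed counts. The cause of the changes below was not tested unless the alternative itself shows it. Of factor regions in patches, DESeq2 passed 11 in place of 7 and the joint fit of all 18 libraries 0, while at 100 nuclei that fit passed 20 in place of 0. Leaving out each library in turn passed 4 to 7 factor regions in patches, with 4 without B library 1 or T library 3, while the count over all regions went from 583 to between 259 (without B library 1) and 673. The drop was over 1.5 times without any one library except those numbered 2. For gene-end sums, leaving out each library passed 1 to 2 factor genes (9 to 66 of all genes, in place of 35, the lowest without T library 3 and the highest without T library 2) and narrowing gene ends to 0.5 kb passed 1. At 100 nuclei, leaving out each library passed 0 to 1 genes, for all regions and for distal regions alike. There DESeq2 passed 1 gene for gene-end regions in place of 0, and library size alone passed 0 for distal regions in place of 1. Counts over all features moved too: 583 regions in patches became 2109 by DESeq2, 0 in the joint fit and 1156 without both libraries numbered 2, the shallowest patches, an alternative chosen after seeing the data. At 100 nuclei 4 regions became 6955 in the joint fit and 1 gene became 75 by DESeq2, and 35 gene-end genes in patches became 158 by DESeq2.

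The labels do not say whether the same replicate number in B and T pairs the libraries. Deviations of same-numbered libraries correlated between -0.01 and 0.03, and those of other pairs between -0.05 and 0.07. Not every library correlated best with its own number. Correlations this weak show no pairing but cannot exclude it. With the replicate number as a block, 4 factor regions passed in patches and 215 of all regions. The block left 0 gene-end genes in patches, and 0 genes at 100 nuclei for all regions and for distal regions. It changed no other count of factor calls.

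Pou2f2 sums near 0 changed sign. The region at its outermost 5′ end went from -0.014 to 0.017 without mitochondrial regions, 0.31 without both libraries numbered 2 and -0.25 to 0.18 with each library left out. The whole gene ranged from -0.092 to 0.13 with each library left out. Its gene-end sum, -0.02, became 0.35 without both libraries numbered 2, 0.35 by start sites and -0.26 to 0.17 with each library left out. Its distal sum, -0.02, became 0.015 with the replicate block, 0.014 with a 100 kb limit and 0.024 without both libraries numbered 2. It ranged from -0.16 to 0.047 with each library left out. With a 20 kb limit it became 0.62 ± 0.70. That limit keeps only the distal regions 6.95 and 19.5 kb from an end. It thus drops the region higher in T and also most others, the start-site region among them. For the ratio of distal to gene-end counts, Ebf1 became -0.028 with a pseudocount of 2. With each library left out the ratio ranged from -0.89 to 1.30 at Ebf1, -0.36 to 0.18 at Pax5, -0.10 to 0.56 at Bcl11a and -0.11 to 0.38 at Pou2f2.

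At 100 nuclei a T library had counts in as few as 2 of the 42 regions. That was T library 4, with 319481 counts in all. T library 3 had 602907 counts in 3941 regions and B library 4 had 603010 in 10954. The cause of these differences was not tested.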

Other observations

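Regions whose nearest gene end was that of Ebf1 or Bcl11a but lay beyond 50 kb showed the same direction in patches. Of 19 such regions 17 could be tested, all 17 had log2 differences above 0, and in 8 the B and T libraries did not overlap (4.33% of all regions were apart in this direction). By edgeR's quasi-likelihood test 2 passed, against 1.22% of all regions. One lay 82.0 kb outside Bcl11a (chr11:24255535-24255704), with 43.8 ± 24.8 normalized CPM in B patches and 3.21 ± 3.11 in T patches (3.75 ± 0.82, adjusted p = 0.0189). The other lay deep inside Ebf1 (chr11:44765023-44765431), 147 kb from its start, with 65.7 ± 10.9 and 5.94 ± 6.80 normalized CPM (3.46 ± 0.78, adjusted p = 0.0213). These regions were looked at after the values of the nearer ones were known.

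A further 28 regions had an end of a factor gene within 50 kb and another gene nearer. The region with the strongest support among them covered an end of Napsa, which encodes an aspartic protease, 40.1 kb from Spib (chr7:44572145-44572673). It had 139 ± 34.3 normalized CPM in B patches and 21.5 ± 9.84 in T patches (2.68 ± 0.33, adjusted p = 0.000826).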
